A study of Homo sapiens with 6 samples.

Results

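Collagens, laminins, matrix glycoproteins and integrins were examined at low and at high culture density in the line NIH:OVCAR-3. The genes were chosen by symbol from the nCounter PanCancer Progression Panel: every collagen chain, laminin chain and integrin subunit, together with FN1, SPP1, FBN1, ABI3BP and SERPINH1. This gave 42 of the 770 genes of the panel, namely 13 collagen chains, 7 laminin chains, 4 matrix glycoproteins, 1 collagen chaperone, 10 integrin alpha subunits and 7 integrin beta subunits. NIH:OVCAR-3 is an established human ovarian cancer line of the high-grade serous type. It was cultured for 1 week in medium with 20% FBS and added insulin, at low density (3 samples) or at high density (3 samples), with no other treatment, and 100 ng of total RNA was hybridized per sample. The medium density that the design also names was not analysed here. The samples carried replicate numbers 1 to 3 within each density. Whether they were separate cultures was not stated, and the p-values therefore cover no more than the variation among 6 samples, possibly technical in origin. As a model this is 1 cell line in culture, with no stromal cells to contribute matrix.

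The nCounter assay counts 1 fluorescent barcode for each captured RNA molecule. Values are given as normalized counts, which are barcode counts scaled so that 30 reference genes had the same geometric mean in every sample. Recovered total counts ran between 658422 and 696309 in low density samples and between 554857 and 683341 in high density samples. Each sample also held 8 negative control probes with no target, and the mean plus 2 SD of these probes, taken on the scale of that sample, was used as its background limit. These limits ran between 12.3 and 17.3 normalized counts at low density and between 12.5 and 18.1 at high density. The labelled cell type was checked against marker genes: 8 of 8 epithelial markers on the panel lay above the limit in all 6 samples, while 0 of 8 fibroblast markers did, and 6 of those 8, among them COL3A1 and COL6A3, were above it in none. Of 7 endothelial markers 2, and of 5 leukocyte markers 1, were above it in all 6. The fibroblast markers summed to between 60.8 and 74.2 normalized counts at low density and between 67.8 and 82.7 at high density. The epithelial markers summed to between 20435 and 21173 at low density and between 28107 and 28948 at high density.

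Collagens are secreted as trimers of alpha chains, and many types need chains of more than 1 gene. Laminins are trimers of 1 alpha, 1 beta and 1 gamma chain, and together with collagen IV they build the basement membrane on which epithelia rest. Integrins are the receptors that hold cells to these proteins, each made of 1 alpha and 1 beta subunit, and a subunit needs its partner to reach the cell surface as that pair.

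Genes with a mean of at least 20 normalized counts over the 6 samples were tested, which were 29 of the 42. At low density, 17 of these 29 rose and 4 fell with an adjusted p under 0.05 (limma, Benjamini-Hochberg over all 480 genes tested), and 8 did not pass the test. Each value averages all cells of a sample, so fewer expressing cells and less RNA per cell cannot be told apart. Of all 480 genes tested, 66.2% passed, 38.8% rising and 27.5% falling. The share of the matrix and integrin genes that passed (72.4%) was thus near that of the panel, with 58.6% rising and 13.8% falling. Their median log2 fold change, low minus high density, was 0.26, against 0.04 for all genes tested. This contrast depended on the filter on low values: without it the median was 0.03 over the 42 genes, against 0.01 over 740 genes. With a stricter filter, a mean of at least 50, it was 0.27 over 20 genes, against 0.04 over 412 genes. With quantile normalization the medians were 0.16 and −0.02. The 3 low and the 3 high density samples did not overlap for 22 of the 29 genes (75.9%), against 66.0% of all genes tested. When the positive controls set the scale of each sample, the share of rises among all calls of the panel was 75.9%, against 58.5% with the deposited scaling, and the share among the matrix and integrin calls was 86.4%, against 81.0%. Calls that held in every other setting in which the gene was tested included the rises of COL4A1, COL4A2, COL5A2, LAMA1, LAMA3, LAMC1, FN1, SPP1, ITGA3 and ITGB3 and the fall of SERPINH1. Of these, FN1, SPP1 and ITGB3 passed the filter only through low density, where they were higher. The epithelial markers moved with density as well, with 7 of 8 called as falling at low density, and their part in the changes described here was not tested.

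**Figure D1:**
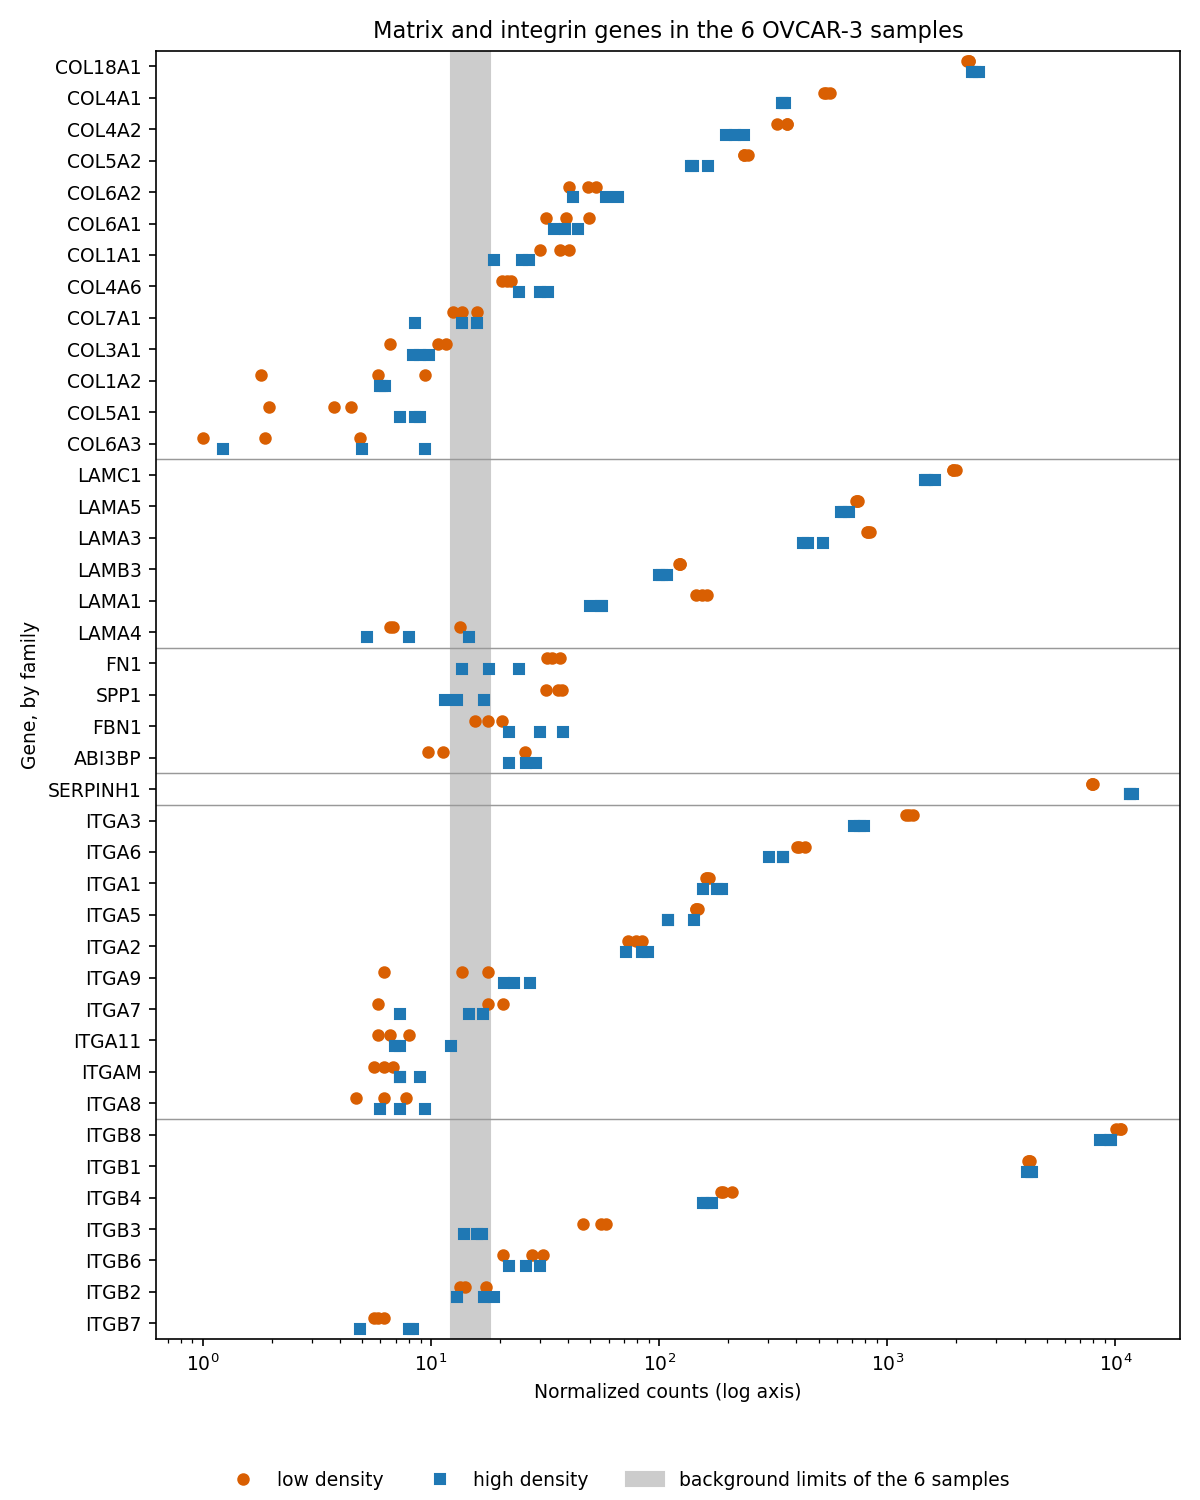
Normalized counts of 41 of the 42 genes in each of the 6 samples on a log axis, by family, with low density samples as orange circles and high density samples as blue squares; the grey band spans the background limits of the 6 samples (12.3 to 18.1). Genes left of the band, such as COL1A2, COL5A1, COL6A3 and ITGA8, cannot be told from the negative controls.

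The first question was which chains the cells expressed at all. Of the 42 genes, 25 were above the background limit in all 6 samples. Another 8 were above it in none: the fibrillar and microfibrillar collagen chains COL1A2, COL3A1, COL5A1 and COL6A3, the integrin subunits ITGA8 and ITGA11, and ITGAM and ITGB7, which are known from leukocytes. The remaining 9 were above it in some samples. Among them, COL7A1 was above the limit in 2 samples, ITGA7 in 3, ITGB2 in 4, ITGA9 in 5 and LAMA4 in 1, and the others were ABI3BP, FN1, SPP1 and ITGB3. The 13 genes left untested had means between 3.89 and 18.2 normalized counts, and their single values ran between 1, the lowest value listed, and 27.2. At this depth such genes were at or near the level of the negative controls, which does not show that they were absent. With a stricter limit at 3 SD, 22 genes instead of 25 stayed above background in all samples.

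Among collagens, 4 of 8 tested chains rose at low density, 1 fell and 3 did not pass the test. The share of collagen chains that passed was thus not above that of all genes tested (66.2%). Their share of rises was above that of all genes tested (38.8%). The collagen IV chains COL4A1 and COL4A2, which form the main network of basement membranes, rose together. COL4A1 had 529, 562 and 541 normalized counts at low density, against 347, 357 and 349.8 at high density. COL4A2 had 363, 329.5 and 364 at low density, against 215, 236.5 and 196 at high density. Every low density sample lay above every high density sample for both chains. COL4A1 rose by 0.63 ± 0.07 on the log2 scale (SE, adjusted p = 1.99e-19) and COL4A2 rose by 0.71 ± 0.08 (adjusted p = 1.19e-16), or 1.55-fold and 1.63-fold. The log2 ratio of COL4A1 to COL4A2 within a sample was 0.54, 0.77 and 0.57 in the low density samples, against 0.69, 0.59 and 0.83 in the high density samples. The ratio overlapped between densities (difference −0.08 ± 0.10, exact permutation p = 0.5), and the difference was within its spread.

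COL4A1 and COL4A2 lie head to head on chromosome 13, transcribed away from each other, with 126 bases between the annotated gene bounds. That interval is shown because it lies between the starts of 2 chains of 1 trimer, both of which rose here. It was cut from RefSeq promoter sequence of GRCh38.p14 (chr13:110307158-110307283, plus strand), and capitals mark a CCAAT box and a GC box (GGGCGG):
COL4A1-COL4A2 interval: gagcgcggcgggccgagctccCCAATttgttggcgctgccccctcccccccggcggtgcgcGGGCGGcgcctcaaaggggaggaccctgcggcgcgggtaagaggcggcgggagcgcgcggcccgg
Its GC content was 80.2%, against a median of 60.3% over promoter windows of the same length. Searched on both strands, it held CCAAT at position 22 and GGGCGG at position 62, which 21.1% and 34.6% of all RefSeq promoter windows of that length also hold, and it held no TATAA, found in 10.6% of them. These matches describe letters and not bound factors.

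The third collagen IV chain on the panel did not follow them. COL4A6, which is known to assemble with COL4A5, had 22.3, 20.5 and 21.6 normalized counts at low density, against 29.9, 32.4 and 24.4 at high density. The samples did not overlap and the low density samples were lower, yet the difference did not pass the test (−0.40 ± 0.23, 95% interval −0.85 to 0.05, adjusted p = 0.109). It passed in 2 of 15 other settings, with quantile normalization (−0.52, adjusted p = 0.0287) and without a mean trend in limma (adjusted p = 0.0158). COL4A5 was not analysed here, so the alternative collagen IV network could not be followed to its partner chain.

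COL5A2, a chain of collagen V that regulates the width of collagen fibrils, had 246, 236 and 235 normalized counts at low density, against 163, 138 and 141 at high density. All low density samples were higher, by 0.69 ± 0.09 on the log2 scale (adjusted p = 4.02e-12). Its usual partner COL5A1 was at background, with 1.94, 4.46 and 3.76 at low density, against 8.97, 7.33 and 8.53 at high density, all under the limits. COL5A3, the other chain of collagen V, was not analysed here.

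COL1A1, the main chain of collagen I, was close to background, with 30.1, 40.2 and 36.6 normalized counts at low density, against 18.9, 25.1 and 26.8 at high density. The samples did not overlap, and the gene rose by 0.58 ± 0.21 (adjusted p = 0.0123). The call was lost when low density replicate 2 or high density replicate 1 was left out, and over all settings the adjusted p ran between 0.00194 and 0.108. COL1A2, its partner in the usual collagen I trimer, was above the limit in no sample. COL1A1 can also form a trimer with itself, which was 1 of 2 collagen homotrimers whose chain was above background in all 6 samples.

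The other was collagen XVIII, a heparan sulfate carrying collagen of basement membranes and the parent of endostatin. COL18A1 had 2287, 2237 and 2284 normalized counts at low density, against 2435, 2517 and 2344 at high density. The low density samples were the lower ones without overlap, and the difference was small (−0.10 ± 0.04, adjusted p = 0.0193). It reversed with positive control scaling (0.05, adjusted p = 0.477), so its direction depended on the scaling. The call was also lost without replicate 2 of either density, with quantile normalization, without a mean trend in limma and by the methods' t-test.

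Collagen VI forms beaded filaments from 3 different chains. COL6A1 had 38.9, 49.1 and 31.9 normalized counts at low density, against 38.9, 34.5 and 43.9 at high density (log2 difference 0.02, 95% interval −0.35 to 0.39, adjusted p = 0.956). COL6A2 had 48.6, 40.2 and 52.6 at low density, against 65.8, 41.9 and 58.5 at high density (−0.21, 95% interval −0.55 to 0.12, adjusted p = 0.264). The densities overlapped for both chains, and the third chain, COL6A3, was above the limit in no sample. Of 12 known collagen heterotrimers considered, 4 had all chains on the panel and only the COL4A1-COL4A2 trimer had all of them above background in all 6 samples.

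SERPINH1 encodes HSP47, the chaperone of the endoplasmic reticulum that binds newly made procollagen. It had 7994, 7919.8 and 7913 normalized counts at low density, against 11595, 11976 and 11576 at high density. The low density samples were all lower and close to each other (CV 0.563%). SERPINH1 fell by 0.56 ± 0.03 on the log2 scale (adjusted p = 6.65e-50), to 0.678 times its high density level. It thus moved opposite to COL4A1, COL4A2 and COL5A2, whose products it is known to chaperone. Under positive control scaling, which moved the median of all genes by 0.15, the fall was 0.41 and was called as well.

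The sequence before its first RefSeq start on chromosome 11 is shown because SERPINH1 is a heat shock gene, and capitals mark the match to a heat shock element, GAANNTTC (GRCh38.p14, chr11:75562003-75562252, plus strand, RefSeq):
SERPINH1 upstream 1: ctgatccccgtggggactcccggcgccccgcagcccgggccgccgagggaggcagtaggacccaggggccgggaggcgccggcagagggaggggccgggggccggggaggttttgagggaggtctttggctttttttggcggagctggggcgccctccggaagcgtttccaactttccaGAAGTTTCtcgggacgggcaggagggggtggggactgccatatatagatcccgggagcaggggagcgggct
The element starts at position 180 of these 250 bases and is found in 5.78% of all promoter windows of that length. The window before a second annotated start of SERPINH1 held none. The data do not show whether the element was in use.

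Among laminin chains, LAMA1, LAMA3, LAMA5 and LAMC1 rose at low density and LAMB3 did not pass the test. For each of them the low density samples lay above the high density samples without overlap. Over all genes tested, 38.8% rose and 66.0% did not overlap between densities. LAMA1, the alpha chain of the laminin first made in embryos, had the largest fitted change of the laminin chains named here. It had 153, 146 and 163 normalized counts at low density, against 49.8, 55.5 and 56.1 at high density. LAMA1 rose 2.86-fold, with SE 0.13 on the log2 scale (adjusted p = 2.79e-26).

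LAMA3 and LAMB3 are an alpha and a beta chain of epithelial basement membranes that can assemble with each other. LAMA3 had 842, 815 and 823 normalized counts at low density, against 428, 449 and 525 at high density. LAMB3 had 122, 123 and 124 at low density, against 103, 108 and 99.95 at high density. All of the low density samples were higher for both chains. LAMA3 rose by 0.83 ± 0.06 (adjusted p = 6.09e-38). LAMB3 differed by 0.25 ± 0.12 (95% interval 0.02 to 0.48, adjusted p = 0.0519) and did not pass, although it passed under 7 of 16 other settings, and its adjusted p ran between 0.00239 and 0.271.

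The proportions of both chains were then compared within each sample. The log2 ratio of LAMA3 to LAMB3 was 2.77, 2.72 and 2.72 in the low density samples, against 2.05, 2.05 and 2.38 in the high density samples, a difference of 0.58 ± 0.11 (SE). The ratio did not overlap between densities and had an exact permutation p of 0.1, the smallest that 3 against 3 samples allow, so the design could not reach 0.05 (adjusted p = 0.156 over 14 pairs). A ratio within a sample does not depend on the scaling between samples, and its level also reflects how well each probe captures its target, so only its change is read.

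LAMA3 has an internal start, within the gene, from which a shorter chain is made. The 250 bases before it are shown because LAMA3 rose and held an AP-1 match. Of the 42 genes, 29 had a promoter entry, a set other than the 29 tested genes. In the first listed window of each, only LAMA3 held a match, while 6.60% of all genes did. Of the 10 rising genes with an entry, 1 held a match, so the match is not read as a trait of rising genes. Capitals mark the matches to TGANTCA (GRCh38.p14, chr18:23872770-23873019, plus strand, RefSeq):
LAMA3 upstream 1: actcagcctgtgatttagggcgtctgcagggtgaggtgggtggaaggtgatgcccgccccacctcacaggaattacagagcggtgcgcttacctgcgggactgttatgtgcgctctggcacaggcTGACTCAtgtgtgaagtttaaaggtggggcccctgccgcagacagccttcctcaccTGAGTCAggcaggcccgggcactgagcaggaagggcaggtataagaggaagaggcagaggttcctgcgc
The 2 matches start at positions 126 and 182, and 6.57% of all promoter windows of that length hold at least 1. Whether the probe counts transcripts from this start or from the upstream one was not given in the sources used here.

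LAMC1, the gamma chain of most laminins, had 1945, 1945 and 2006 normalized counts at low density, against 1468, 1496 and 1626 at high density. LAMA5, the alpha chain of many adult basement membranes, had 739, 729.6 and 742 at low density, against 644, 628 and 680.2 at high density. The low density samples of both were the higher ones without overlap. LAMC1 rose by 0.36 ± 0.04 (adjusted p = 5.22e-16), while LAMA5 rose by 0.18 ± 0.05 (adjusted p = 0.00202), a call lost with quantile normalization (0.01, adjusted p = 0.876). LAMC1 can pair with LAMA1, LAMA3 or LAMA5 through LAMB1 or LAMB2, neither of which was analysed here. Relative to LAMC1 in the same sample, LAMA1 was higher at low density by 1.14 ± 0.05, LAMA3 was higher by 0.46 ± 0.05, and LAMA5 differed by −0.18 ± 0.02 (log2 differences of ratios, each with exact permutation p = 0.1 and no overlap). LAMA4, an alpha chain known from vessels and muscle, had 6.8, 13.4 and 6.58 normalized counts at low density, against 7.97, 5.23 and 14.6 at high density, and only the last of these was above its limit.

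**Figure D2:**
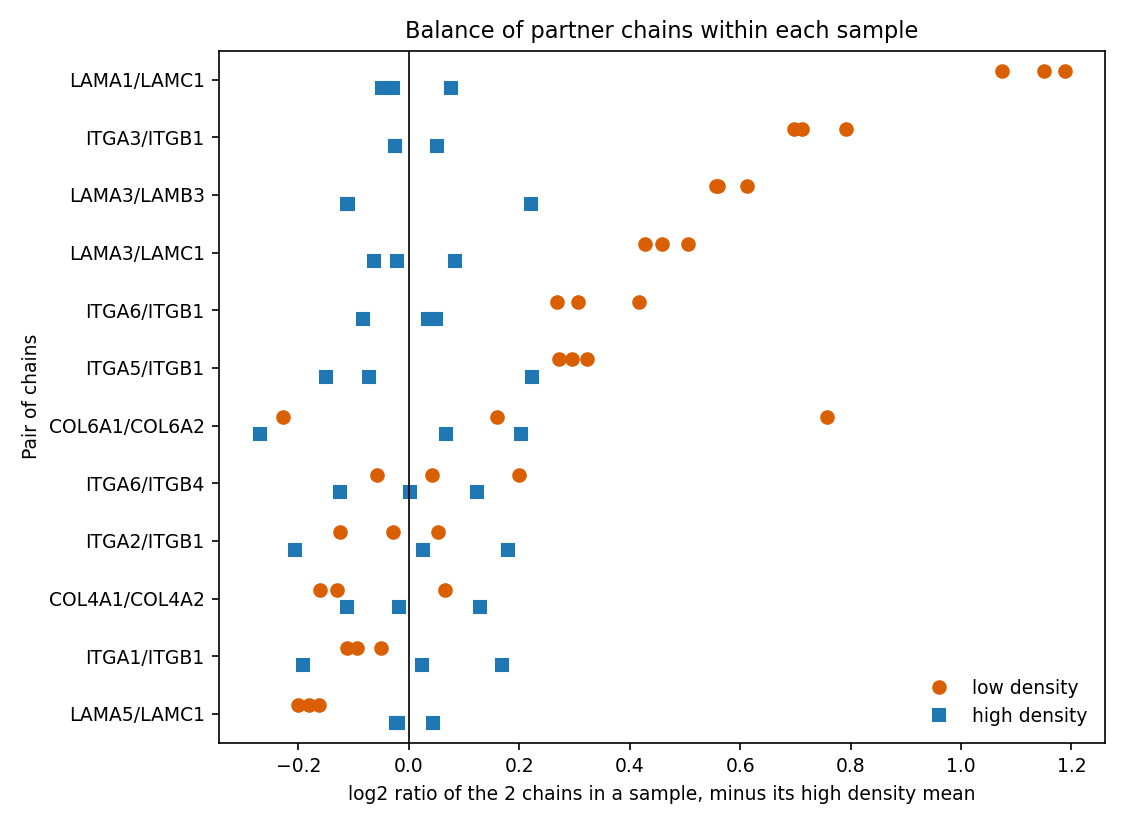
Log2 ratio of 2 partner chains within each sample, minus the high density mean of that pair, for 12 pairs, with low density samples as orange circles and high density samples as blue squares. LAMA1/LAMC1 and ITGA3/ITGB1 lie farthest right at low density, 7 of these 12 pairs do not overlap between densities, and COL4A1/COL4A2 and ITGA6/ITGB4 are among the 5 that do.

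All 4 matrix glycoproteins passed the test, 2 rising and 2 falling, and all were close to background. Over all genes tested, 66.2% passed. For each of the 4, the mean of 1 density lay under the cutoff set for the mean over all samples. Each thus entered the test only through the density where it was higher. A count of 4 of 4 is therefore not read as a trait of this family. SPP1 encodes osteopontin, a secreted ligand of integrins. It had 35.9, 37.5 and 31.9 normalized counts at low density, against 12.95, 11.5 and 17.1 at high density. Only 1 high density sample was above its limit, so the change is given as a bound: the low density mean of SPP1 was at least 2.24-fold higher, set against the mean high density limit of 15.7 (fitted difference 1.30 ± 0.24, adjusted p = 2.99e-07). FN1, the gene of fibronectin, had 34, 32.2 and 36.6 at low density, against 17.9, 13.6 and 24.4 at high density. FN1 rose by 0.88 ± 0.23 (adjusted p = 2.85e-04) without overlap, with 1 high density sample under its limit.

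FBN1 encodes fibrillin-1, the backbone of microfibrils. It had 15.5, 20.5 and 17.9 normalized counts at low density, against 29.9, 22.0 and 37.8 at high density. FBN1 fell by 0.68 ± 0.24 (adjusted p = 0.0076). The call was lost without high density replicate 1 or replicate 3 and by the methods' t-test (adjusted p = 0.0823). ABI3BP, a matrix protein that binds collagen, had 9.71, 25.9 and 11.3 at low density, against 28.9, 26.2 and 21.9 at high density. Low density replicate 2 lay within the high density range and was the only low density sample above its limit. ABI3BP fell by 0.80 ± 0.26 (adjusted p = 0.00371), a call that 5 of 15 other settings did not give, among them those without low density replicate 1 and without high density replicate 1 (adjusted p up to 0.193).

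**Figure D3:**
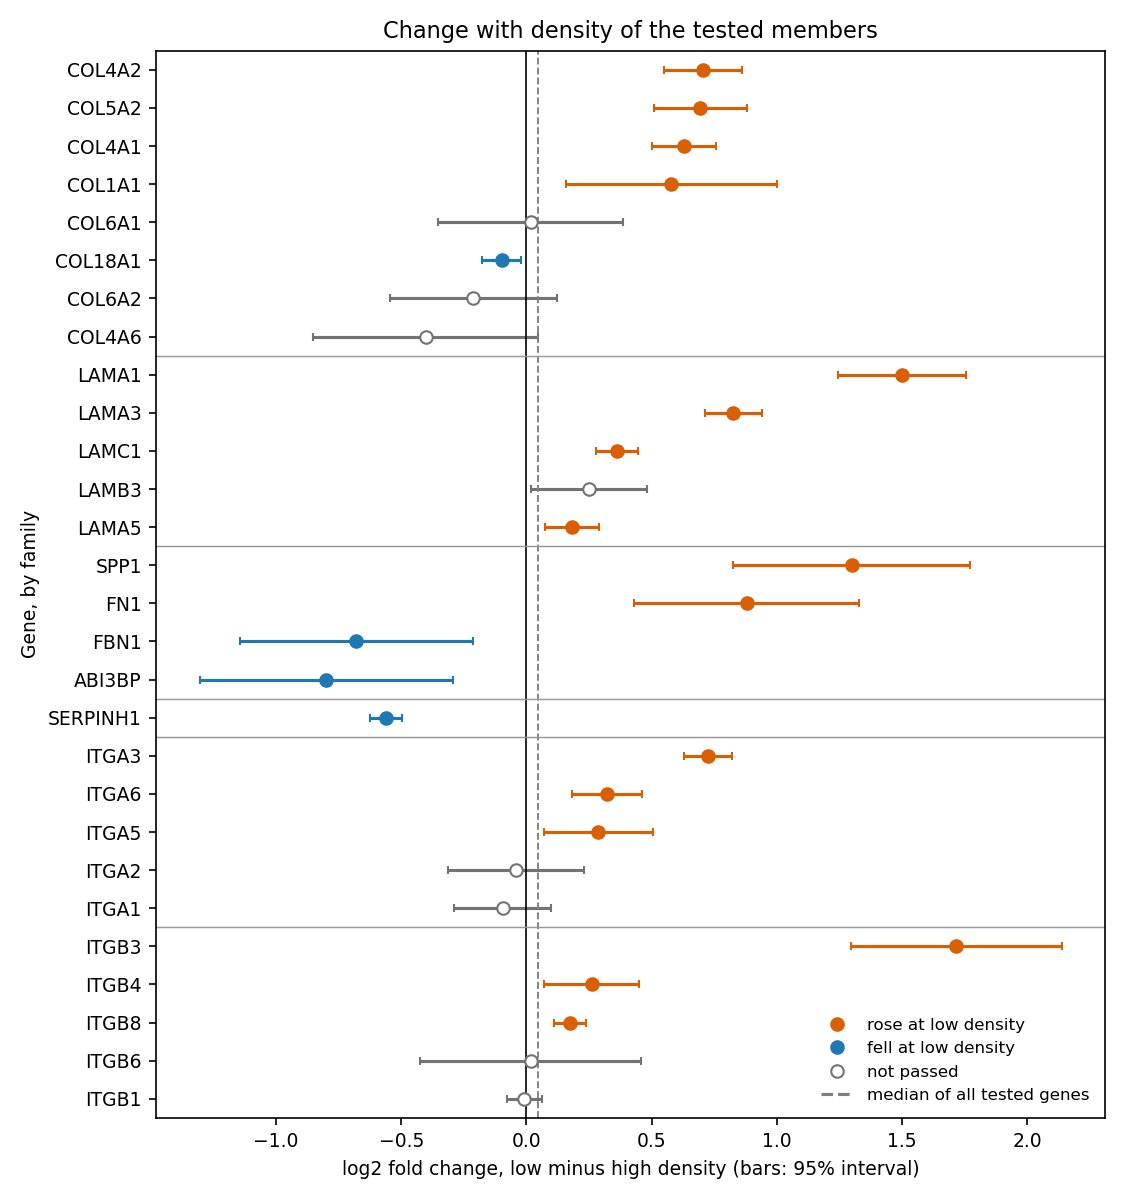
Log2 fold change, low minus high density, of 28 of the 29 tested genes with 95% intervals, by family; orange points rose, blue points fell, open points did not pass, and the dashed line marks the median of all 480 tested genes (0.04). ITGB3, LAMA1 and SPP1 lie farthest right, and COL18A1, FBN1, ABI3BP and SERPINH1 are the 4 that fell.

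Integrin subunits were measured with 17 genes, of which 10 were tested. At low density 6 rose, 0 fell and 4 did not pass. The share of these subunits that passed was thus not above that of all genes tested (66.2%). Their share of rises was above that of all genes tested (38.8%). Of 24 known integrin heterodimers, 11 had both subunits on the panel and 6 of these had both above background in all 6 samples, namely ITGB1 with ITGA1, ITGA2, ITGA3, ITGA5 or ITGA6, and ITGB4 with ITGA6.

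ITGB1, the common partner of these alpha subunits, had 4232, 4155 and 4187 normalized counts at low density, against 4308, 4273 and 4079 at high density. The densities overlapped and the difference was −0.01 on the log2 scale (95% interval −0.08 to 0.06, adjusted p = 0.842). Its sign followed the scaling, with a fall of 0.07 called under median-of-ratios scaling and a rise of 0.14 called under positive control scaling.

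ITGA3 and ITGA6 are the alpha subunits of laminin receptors. ITGA3 had 1242, 1207 and 1300.04 normalized counts at low density, against 758, 793 and 718 at high density. It rose by 0.72 ± 0.05 (adjusted p = 1.19e-39), or 1.65-fold, with no overlap. ITGA6 had 402, 438 and 409 at low density, against 348, 348 and 303.5 at high density. ITGA6 rose by 0.32 ± 0.07 without overlap (adjusted p = 1.44e-05), a call lost with quantile normalization (adjusted p = 0.107). Set against ITGB1 in the same sample, ITGA3 was higher at low density by 0.73 ± 0.04 and ITGA6 by 0.33 ± 0.06, again without overlap (exact permutation p = 0.1 each).

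ITGB4 pairs with ITGA6 in the hemidesmosome and binds laminin. It had 191, 187 and 209 normalized counts at low density, against 156, 171 and 162 at high density. ITGB4 rose by 0.26 ± 0.10 without overlap (adjusted p = 0.0124), and the call was lost without low density replicate 3 and under median-of-ratios or quantile scaling (adjusted p up to 0.0774). The ratio of ITGA6 to ITGB4 overlapped between densities, with a difference of 0.06 ± 0.10 (exact permutation p = 0.6).

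ITGA1 and ITGA2 are the alpha subunits of collagen receptors, and neither passed the test. ITGA1 had 161, 165 and 162 normalized counts at low density, against 155, 179 and 189 at high density (−0.10, 95% interval −0.29 to 0.10, adjusted p = 0.411). ITGA2 had 84.5, 73.2 and 78.9 at low density, against 71.7, 83.7 and 89.0 at high density (−0.04, 95% interval −0.31 to 0.23, adjusted p = 0.812). Both overlapped between densities. Under positive control scaling both estimates changed sign, and under quantile normalization ITGA2 was called as a fall (−0.29, adjusted p = 0.017).

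ITGA5, the alpha subunit of the fibronectin receptor, had 145, 147 and 146 normalized counts at low density, against 142, 109 and 109.7 at high density. The low density samples were higher, though high density replicate 1 came close to them. ITGA5 rose by 0.29 ± 0.11 (adjusted p = 0.0164), a call lost in 6 of 16 other settings, among them those without high density replicate 2 or replicate 3 and median-of-ratios scaling (adjusted p up to 0.306).

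**Figure D4:**
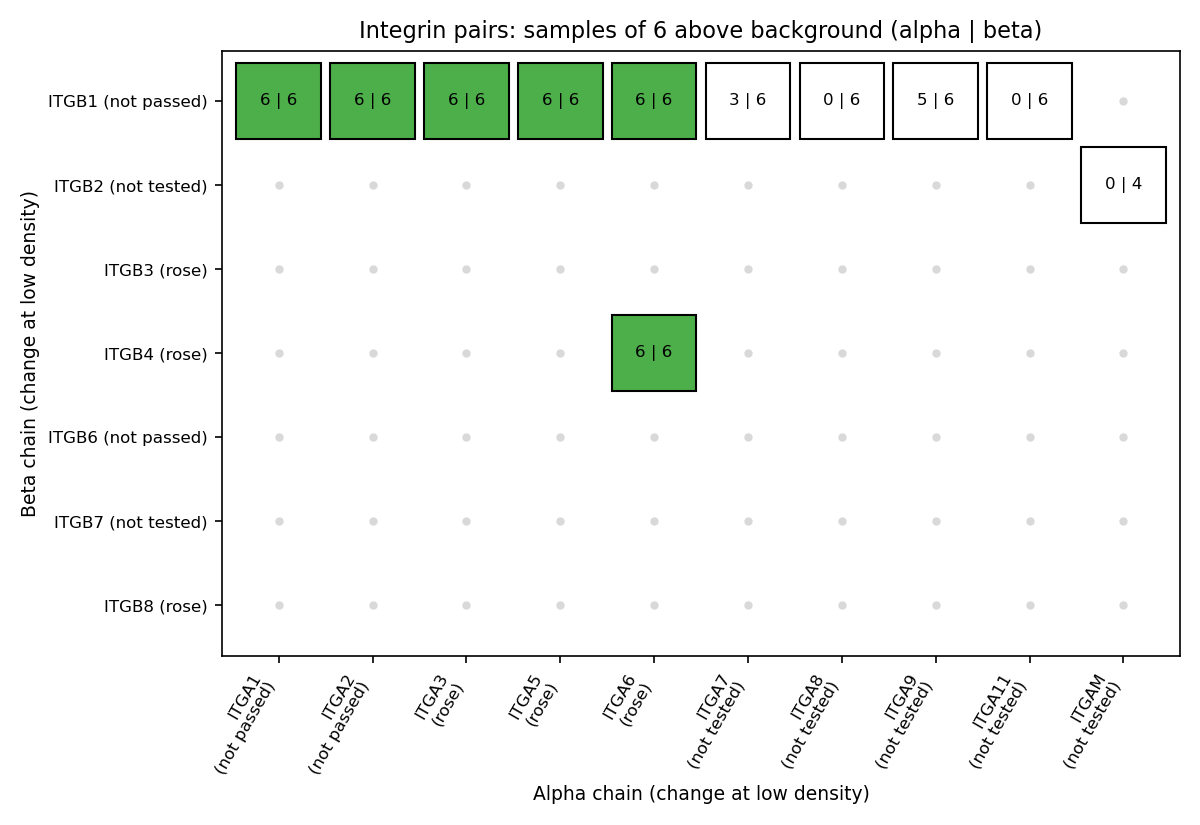
Known pairs between the 10 alpha and 7 beta subunits on the panel (boxes), with the number of the 6 samples in which the alpha and then the beta subunit was above background; green boxes have both above in all 6, and axis labels give each subunit's change at low density. All 6 green boxes involve ITGB1 or ITGB4, and ITGB3, ITGB6, ITGB7 and ITGB8 have no box because their known alpha partners were not analysed.

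The beta subunits that pair with the alpha v subunit, ITGAV, which was not analysed here, come next. ITGB3 had 55.4, 46.4 and 58.2 normalized counts at low density, against 13.95, 16.7 and 15.9 at high density. Only 1 high density sample exceeded its limit, so here too the change is a bound. The low density mean was at least 3.39-fold higher, set against the same limit (fitted difference 1.72 ± 0.21, adjusted p = 3.94e-14). This was the largest fitted rise among the 29 genes with the deposited scaling. The high density mean of ITGB3 lay under the filter cutoff, so the gene entered the test only through low density. Its rank and p-value are read under that condition. ITGB8, whose pair with alpha v releases active TGF-beta from its latent form, had 10543, 10079 and 10461 at low density, against 9438, 8556 and 9586 at high density. ITGB8 rose by 0.17 ± 0.03 without overlap (adjusted p = 6.16e-07), a call that the methods' t-test did not give (adjusted p = 0.0609). ITGB6, an epithelial subunit with a similar role, had 31.1, 27.7 and 20.7 at low density, against 29.9, 26.2 and 21.9 at high density. Its densities overlapped, with a difference of 0.02 (95% interval −0.42 to 0.46, adjusted p = 0.96).

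The remaining integrin genes were near background. ITGA9, known to bind tenascin and osteopontin, had 13.6, 6.25 and 17.9 normalized counts at low density, against 20.9, 27.2 and 23.2 at high density. Its mean of 18.2 kept it out of the test. ITGA7, a laminin receptor subunit of muscle, had 5.83, 17.9 and 20.7 at low density, against 16.9, 14.7 and 7.31 at high density. ITGB2, the beta subunit of leukocyte integrins, had 17.5, 13.4 and 14.1 at low density, against 12.95, 18.8 and 17.1 at high density, and its partner ITGAM was above the limit in no sample. COL7A1, the collagen of anchoring fibrils, had 13.6, 12.5 and 15.97 at low density, against 15.9, 13.6 and 8.53 at high density.

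**Figure D5:**
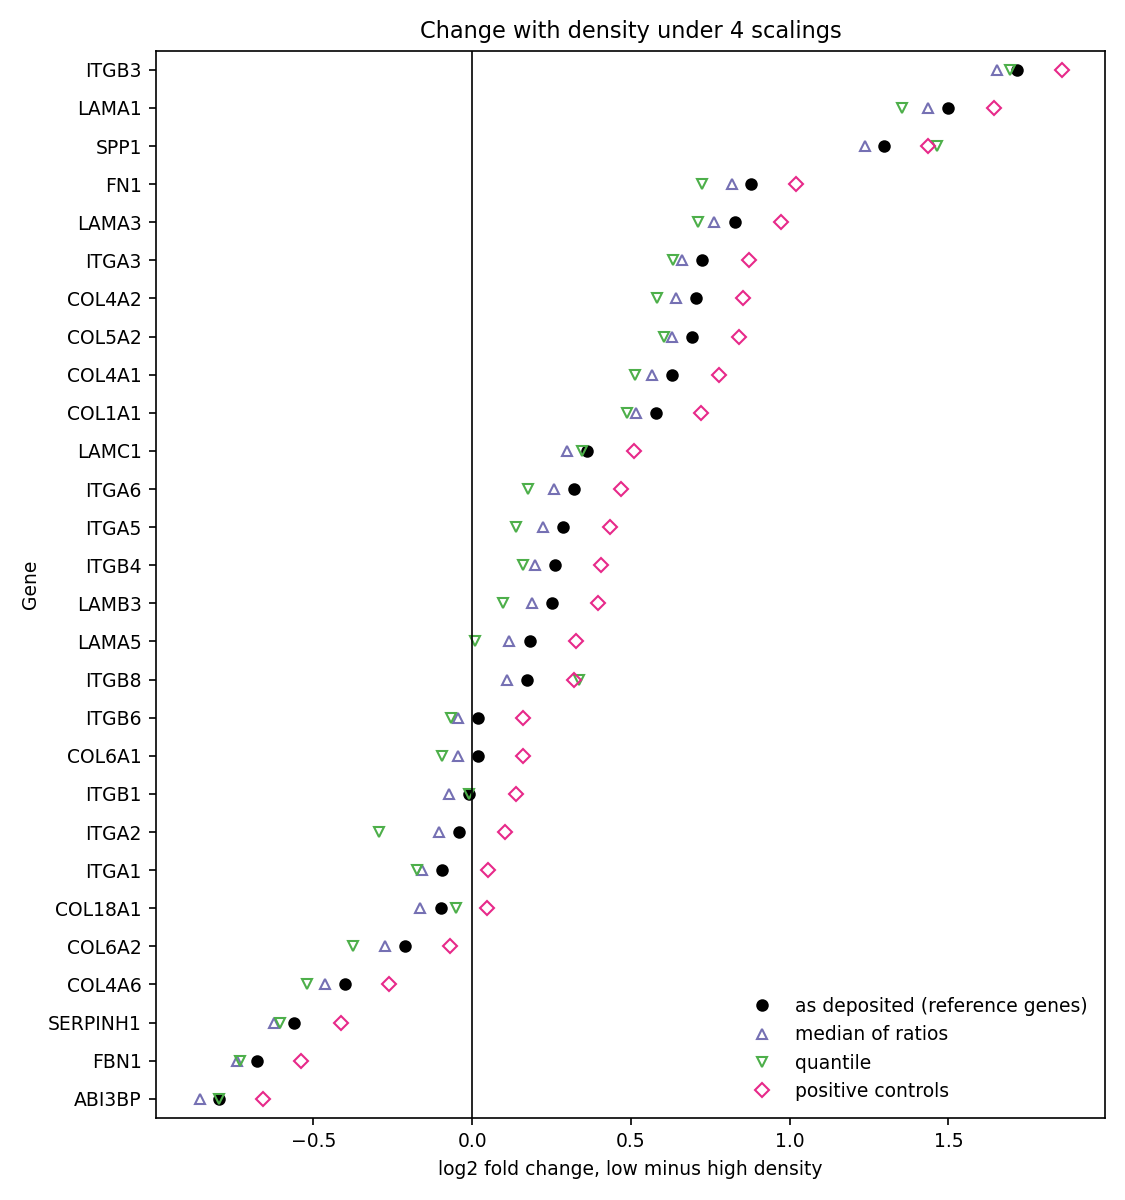
Log2 fold change, low minus high density, of 28 of the 29 tested genes under the deposited scaling to reference genes (black circles), median-of-ratios scaling, quantile normalization and positive control scaling. Positive control scaling places all genes farther right, so that COL18A1, ITGA1, ITGA2 and ITGB1 change sign, while ITGB3, LAMA1, SPP1, FN1, LAMA3, ITGA3 and the COL4A1, COL4A2 and COL5A2 chains stay right of zero and SERPINH1, FBN1 and ABI3BP left of it under all 4.

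Other matrix and adhesion genes of the panel were counted from 4 lists. Of 52 such genes, 32 were tested, of which 15 rose at low density, 3 fell and 14 did not pass. Of these 32, 56.2% passed and 46.9% rose, against 66.2% and 38.8% of all genes tested. Their median log2 fold change was 0.17, against 0.04 over all genes tested. Among 13 genes of adhesion complexes and integrin signaling, 9 rose and 1 fell, with a median of 0.22. CAV1, the scaffold of caveolae, rose by 0.89 ± 0.10 (adjusted p = 2.1e-18), PTK2B, a kinase related to focal adhesion kinase, rose by 0.47 ± 0.08 (adjusted p = 1.86e-07), and DDR2, a collagen receptor that is not an integrin, fell by 0.67 ± 0.06 (adjusted p = 1.36e-21).

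Of 12 tested structural and matricellular proteins, 5 rose (41.7%, against 38.8% of all genes tested), 0 fell and 7 did not pass, with a median of −0.01. TNC, which encodes tenascin C, rose by 0.65 ± 0.07 (adjusted p = 1.3e-18), and THBS1, which encodes thrombospondin 1, rose by 0.59 ± 0.08 (adjusted p = 1.9e-13). Of 4 tested proteoglycan genes, VCAN (versican) rose by 0.46 ± 0.18 (adjusted p = 0.0161) and SDC4 (syndecan 4) fell by 0.16 ± 0.04 (adjusted p = 5.12e-05). Of 3 tested collagen-modifying enzymes, 0 rose and P3H1, a prolyl hydroxylase of the endoplasmic reticulum, fell by 0.39 ± 0.10 (adjusted p = 1.39e-04). The other 2 did not pass, and the median of the 3 estimates was 0.42, opposite in sign to that of P3H1.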

How the data were processed

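The authors deposited 1 table of 784 nCounter probes: 770 genes, 8 negative and 6 positive controls. Per the values, the deposited gene signal was barcode counts times 1 factor per sample that set the geometric mean of 30 reference genes to 383.27 to 383.28, with no background subtracted and the lowest values listed as 1. The control probes were listed as whole counts. The software used for this scaling was not given in the sources used here. Values under 100 were whole multiples of 1 step per sample within 0.1 count in 100.0% of cases, leaving out those listed as 1. In high density replicate 1 the step was 0.996, so close to 1 that its values were not taken as recovered counts for a count test. The step gave the totals (554857 to 696309 counts) and put the negative controls (mean 6 to 10 counts) on the scale of the genes.

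With the reference genes set aside, the 480 of 740 genes whose mean reached 20 were fitted as log2(value + 1) on density, low minus high, with limma 3.58.1 in R 4.3.3 (two-sided, empirical Bayes with its prior variance following mean expression, replicate number not in the model). The pseudocount of 1 understates changes of weak genes. P-values were adjusted by Benjamini-Hochberg over the 480 genes at a threshold of 0.05. The fit borrowed its spread from all genes, so its SEs, intervals and p-values rest mainly on the panel and little on a gene's own samples. The p-values thus lie far below what 3 against 3 samples alone allow. A gene was above background in a sample when it exceeded the 8 negative controls by 2 SD over their mean. Fold changes against a group mean under the mean limit of that group (14.3 at low, 15.7 at high density) are bounds against that limit. Ratios of partner chains were tested by two-sided exact permutation (Python 3.11.15, SciPy 1.17.1).

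All tested matrix and integrin genes but 1, which is counted in the totals and not reported here, were named with their values, and other lists by counts with up to 2 genes of the largest change in each direction past the threshold. Filters, pseudocounts, scalings, background subtraction, tests, the replicate block and leaving out each sample were tried as alternatives. The genes and lists were chosen with earlier results of these data known. All 42 symbols were found in the RefSeq list of GRCh38.p14, and 29 had an entry among 35097 promoter sequences. The panel's probe sequences were not used here.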

Additional observations from a re-analysis of the deposited data

How the results depend on the processing

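Genes with means under 100 normalized counts rest on few barcodes: the CV within a density ran between 4.21% and 57.2% for the 11 such tested genes, against 0.563% to 15.9% for the 18 genes above. Of 21 calls, 12 held in every other setting in which the gene was tested. Counts of genes changed, rising and falling stayed within 1.5 times of 21, 17 and 4, except that the falls numbered 2 (COL18A1 and SERPINH1) with a mean of at least 50, which leaves fewer genes tested, 1 (SERPINH1) by the methods' t-test, and 2 without high density replicate 1. Quantile normalization gave the fewest rises, with 16 genes changed, 12 rising and 4 falling, and 7 of the 21 calls were lost. Leaving out 1 sample at a time gave 18 to 20 genes changed, 16 to 17 rising and 2 to 4 falling. Without a filter on low values 6 genes fell, COL5A1 and ITGA9 being added.

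Estimates near 0 changed sign with the scaling. Under median-of-ratios scaling COL6A1 was −0.0455 and ITGB6 −0.0444, and under quantile normalization COL6A1 was −0.0946 and ITGB6 −0.0663. Under positive control scaling COL18A1 was 0.0477, ITGA1 0.0507, ITGA2 0.10 and ITGB1 0.14 (the last with adjusted p = 0.0203 by limma). With 1 sample left out, ITGB6 ran between −0.10 and 0.18, COL6A1 between −0.14 and 0.16, ITGA2 between −0.13 and 0.0227, and ITGB1 between −0.0337 and 0.0058. The cause was not tested. The difference in the LAMA1 to LAMC1 ratio was 1.14, and was 1.00 with a pseudocount of 10 and 1.32 after subtraction of the negative controls.

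With the replicate number as a block, 22 genes changed, 18 rising and 4 falling, and LAMB3 alone was added. Deviations of same-numbered samples correlated at 0.12, −0.11 and −0.04, and those of differently numbered samples at −0.11 to 0.13. No strong shared effect of the replicate number was thus seen. Whether the numbers pair the samples is not stated by the labels, and these correlations cannot decide it. The count tests on recovered counts were not run, because the step of high density replicate 1 (0.996) lay too close to 1 for its counts to be accepted as recovered; the totals and background limits rest on the same steps.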
